A study of Rattus norvegicus with 18 samples.

Results

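Gc, Vdr, Cyp27a1 and Cyp24a1 encode the carrier, the nuclear receptor and a pair of hydroxylases of the vitamin D system, and they were read in the livers of vitamin D-supplemented rats. They were taken by Ensembl ID: ENSRNOG00000003119 (Gc), ENSRNOG00000054420 (Vdr), ENSRNOG00000017188 (Cyp27a1) and ENSRNOG00000013062 (Cyp24a1). All 4 IDs are among the 30560 gene IDs counted, and 2 of them, Gc and Cyp27a1, held enough counts to be tested among 11268 genes. The pairing of IDs with names came with the gene list. The count files hold no names, and the RefSeq annotation at hand lists 47357 rat genes with 0 Ensembl IDs, so the pairing was not checked against an annotation.

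The animals were adult female rats of about 1 year, kept for 3 months on vitamin D at 0, 1000 or 5000 U/kg, with 6 livers per dose. What the kg refers to, body weight or feed, is not stated in the labels, and no strain, form of vitamin D or vehicle is named. Each library was a 3' mRNA library (QuantSeq FWD), in which a transcript is read near its poly(A) end, so that CPM (gene counts scaled to a common library total) follow transcript number with little influence of length. The exception is a gene whose 3' end is wrongly annotated, which is undercounted. Each library is labelled as a separate replicate, and the design text gives 18 rats.

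Vitamin D from skin or diet is first hydroxylated in the liver to calcidiol, the main circulating form, and then in the kidney to calcitriol, the hormone. Gc is the vitamin D binding protein, which hepatocytes secrete and which carries these metabolites in plasma. Vdr is the receptor that calcitriol activates; it binds DNA with a retinoid X receptor partner. Cyp27a1 is a mitochondrial sterol hydroxylase of bile acid synthesis that can also make calcidiol, and Cyp24a1 is the mitochondrial enzyme that begins the breakdown of calcidiol and calcitriol and a classic target of the receptor in kidney and gut. Hepatocytes are known for low Vdr.

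Library depth ran from 6787033 to 12555457 gene counts. A pair of libraries stood apart from their groups: replicate 2 of the undosed rats had a mean Spearman correlation of 0.698 with the other undosed livers, and replicate 5 at 1000 U/kg one of 0.801, where the other 16 libraries ranged from 0.869 to 0.942. Results that rest on these libraries are given with and without them. No marker gene of liver or of another tissue could be read, since IDs other than the 4 have no name here, and for the same reason no other gene of the vitamin D pathway is reported.

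Because Gc was the abundant member, its promoter was examined for letters known from liver-enriched factors. RefSeq promoters (build GRCr8, 250 bases before to 50 after each gene start) were found for 3 of the 4 genes, Gc, Vdr and Cyp27a1. The stretch below, at chr14:18916052-18916081 on the plus strand, is shown because it carries, in capitals, a match to a shortened motif of hepatocyte nuclear factor 1, a homeodomain factor of liver, kidney and gut (GTTAAT, then any base, then ATTAA). The full palindromic motif ends in a further C, where this stretch has an a, so the stretch does not match it in full. The full motif was not searched.
Gc promoter: agtgacaaaGTTAATGATTAAaacctccca
The capitals lie at −194 to −183 from the gene start. The motif, searched on both strands and chosen after the sequence had been seen, was found in 15 of 33469 promoters of the same length (0.0448%), and not in those of Vdr or Cyp27a1. Because of this choice the match in Gc was fixed in advance, and the share does not measure how unusual it is. The element bound by the vitamin D receptor, a direct repeat of hexamers with 3 bases between (DR3), was searched on both strands in the same windows. It matched in 69 promoters (0.206%), and in none of the 3 found here. Either result describes these letters in this window and was not tested against binding.

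The 4 transcripts ranged from among the most abundant genes to no count at all, in the order Gc, Cyp27a1, Vdr and Cyp24a1. The order of Vdr and Cyp24a1 rests on 6 counts of Vdr. Scaled by TMM (trimmed mean of M-values, a correction of library size), Gc averaged 5843 ± 1920 CPM over all libraries (SD, n = 18) and ranked 20th of 30560 genes by mean level. Cyp27a1 averaged 179 ± 68.5 CPM (SD, n = 18) and ranked 587th. In every library the CPM of Gc exceeded that of Cyp27a1. Vdr had 6 counts in all 18 libraries together, and 44.4% of gene IDs had as few or fewer. Cyp24a1 had 0 counts in all 18, as had 35.2% of gene IDs (10772 of them). The floor of 3 counts corresponds to 0.0514, 0.0513 and 0.0619 CPM over the 6 libraries at 0, 1000 and 5000 U/kg. Cyp24a1 was below it at every dose. Vdr was below it at 0 and 5000 U/kg and passed it at 1000 U/kg with 4 counts, 3 of them from replicate 5.

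**Figure D1:**
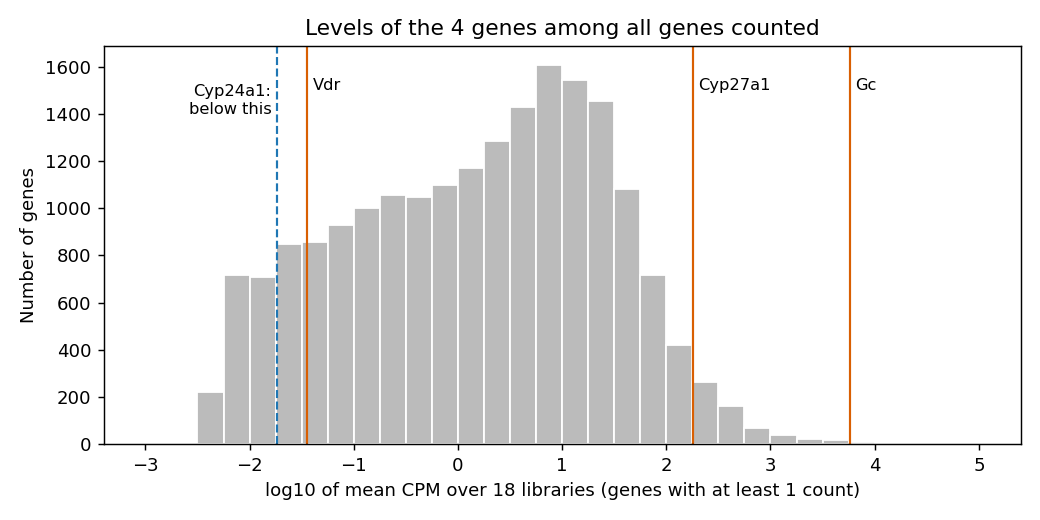
Histogram of all genes with at least 1 count by the log10 of their mean TMM-scaled CPM over 18 libraries (x axis, log scale; y axis, number of genes). Solid lines mark Gc at 5843, Cyp27a1 at 179 and Vdr at 0.0360 CPM. The dashed line is the floor of 0.0181 CPM over all 18 libraries, drawn for Cyp24a1, which had 0 counts.

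Gc, the carrier, was abundant in every liver, and no difference between doses exceeded the spread between rats. In undosed rats it ran from 3226 to 9021 CPM with a median of 6358. The range was 1771 to 8085 CPM with a median of 5811 in livers of the 1000 U/kg dose, and 3159 to 6896 CPM with a median of 5776 in those of the 5000 U/kg dose. The 3 ranges overlapped. For comparison, the libraries did not overlap in 0.0976% of genes tested between 1000 and 0 U/kg, in 0.142% between 5000 and 0 and in 0.186% between 5000 and 1000 U/kg. Each group held 1 liver well below the rest, or at 5000 U/kg a pair of lower ones. The group means were 6538 ± 2088, 5610 ± 2295 and 5380 ± 1417 CPM (SD, n = 6 each), so the mean was lower at either dose than in undosed rats by less than 1 SD. In bulk liver, fewer cells of a type and less RNA per cell cannot be told apart.

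The log2 fold change of Gc at 1000 against 0 U/kg was −0.22 (SE 0.32, edgeR adjusted p = 0.903), with a 95% confidence interval from 0.536-fold to 1.37-fold. At 5000 against 0 U/kg it was −0.28 (SE 0.32, edgeR adjusted p = 0.99996), with an interval from 0.514-fold to 1.32-fold. Between 5000 and 1000 U/kg it was −0.061 (SE 0.32, edgeR adjusted p = 0.977), with an interval from 0.599-fold to 1.53-fold. The first 2 comparisons share the undosed livers. Exact permutation tests on the mean CPM, two-sided over 924 splits, gave p = 0.485, 0.307 and 0.842 in the same order. Larger differences than these bounds lie outside the intervals. The bounds are not detection limits, and the smallest difference detectable in these groups is not given here.

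Among all 11268 genes, edgeR's quasi-likelihood test with Benjamini-Hochberg adjustment called 0 (0%) in each of the 3 comparisons and in the test of any dose, so 0 of the 2 members tested is the same share as the background. Genes with an unadjusted p under 0.05 numbered 839, 400, 660 and 630 for 1000 against 0, 5000 against 0, 5000 against 1000 U/kg and any dose. These were 7.45%, 3.55%, 5.86% and 5.59% of the genes tested, where a threshold of 0.05 alone gives a share of about 0.05. DESeq2 and limma voom called 0 genes in each of the 3 comparisons, and 1 and 0 genes for any dose. Neither member was among the genes with an unadjusted p under 0.05 in any of the 4 edgeR tests. For any dose, the unadjusted edgeR p of Gc was 0.661 and that of Cyp27a1 0.774.

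Counting error was a small part of the spread of Gc. A library held 16865 to 108299 Gc counts, for which Poisson counting gives a coefficient of variation of 0.304% to 0.770%, while the CPM varied by 31.9%, 40.9% and 26.3% between rats of the 3 doses. The biological coefficient of variation that edgeR estimated for Gc was 0.405, with 37.6% of the tested genes below it and a median over all genes of 0.456. The spread of Gc between livers was thus a little below that of the median gene. Reads of PCR copies cannot be told from separate molecules, so all counting errors and floors cover counting only.

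Cyp27a1, the sterol hydroxylase, was present in every liver with a higher mean in dosed than in undosed rats, again within the spread between rats. Undosed livers ran from 14.5 to 207 CPM with a median of 201. Livers of the 1000 U/kg dose ran from 64.8 to 275 CPM with a median of 211, and livers of the 5000 U/kg dose from 71.6 to 242 CPM with a median of 196. The medians lay close together and the ranges overlapped, with a single very low liver in each group. The means were 158 ± 78.2, 197 ± 73.4 and 181 ± 59.3 CPM (SD, n = 6 each).

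The low mean of undosed rats rested on replicate 2, which held 132 Cyp27a1 counts, or 14.5 CPM, 7.14% of the median of the other 17 libraries. Its Poisson coefficient of variation was 8.70%, so this level was far below the others by more than counting error. The next liver of that group, replicate 5, held 117 CPM and the other 4 held 200.1 to 207 CPM. Without replicate 2 the undosed mean was 186 ± 38.7 CPM (SD, n = 5).

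At 1000 against 0 U/kg the log2 fold change of Cyp27a1 was 0.33 (SE 0.45, edgeR adjusted p = 0.901), with a 95% interval from 0.649-fold to 2.42-fold. At 5000 against 0 U/kg it was 0.20 (SE 0.45, edgeR adjusted p = 0.99996), with an interval from 0.595-fold to 2.21-fold. Between 5000 and 1000 U/kg it was −0.13 (SE 0.45, edgeR adjusted p = 0.958), with an interval from 0.475-fold to 1.77-fold. Exact permutation tests on the mean CPM gave p = 0.385, 0.574 and 0.654. Without the undosed replicate 2, the first value was 0.084 (edgeR adjusted p = 0.999) and the second turned to −0.062 (edgeR adjusted p = 0.967). Without both libraries that stood apart, they were 0.28 and −0.037 (edgeR adjusted p = 0.99976 and 0.964). Between 5000 and 1000 U/kg, the value without both was −0.32 (edgeR adjusted p = 0.785), with an exact permutation p of the mean CPM of 0.186.

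Leaving out the undosed replicate 2 alone moved Gc to a log2 fold change of −0.36 for 1000 and −0.44 for 5000 against 0 U/kg (edgeR adjusted p = 0.999 and 0.758). Leaving out only replicate 5 of the 1000 U/kg dose moved these values to −0.040 and −0.30 (edgeR adjusted p = 0.993 and 0.925). Without both libraries Gc was lower at both doses, with log2 fold changes of −0.16 at 1000 and −0.41 at 5000 against 0 U/kg (SE 0.23 and 0.22, edgeR adjusted p = 0.99976 and 0.553). The interval at 5000 U/kg then ran from 0.548-fold to 1.03-fold. The unadjusted edgeR p was 0.0720, the smallest of Gc in this fit, and the exact permutation p of the mean CPM was 0.0952, over 462 splits. The undosed mean without replicate 2 was 7200 ± 1470 CPM (SD, n = 5). Between 5000 and 1000 U/kg, the log2 fold change of Gc without both libraries was −0.25 (edgeR adjusted p = 0.795). The exact permutation p of the mean CPM was 0.281 for that comparison.

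**Figure D2:**
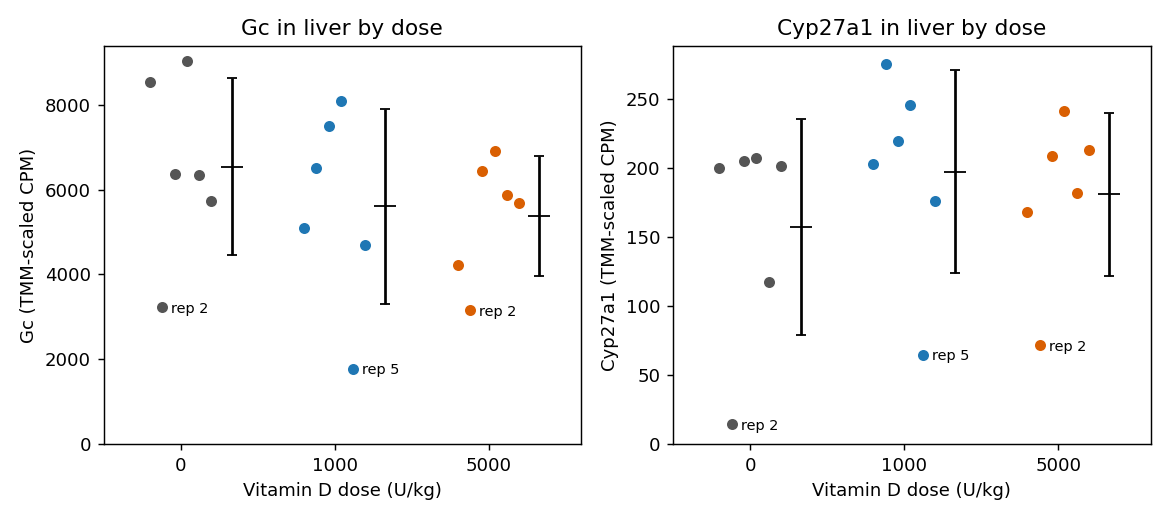
TMM-scaled CPM of Gc (left) and Cyp27a1 (right) in each liver by vitamin D dose in U/kg; each point is 1 rat, and bars show the group mean with SD (n = 6). In both panels the lowest liver of each dose is the same rat, labelled by its replicate number, and the remaining livers of the 3 doses overlap.

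**Figure D3:**
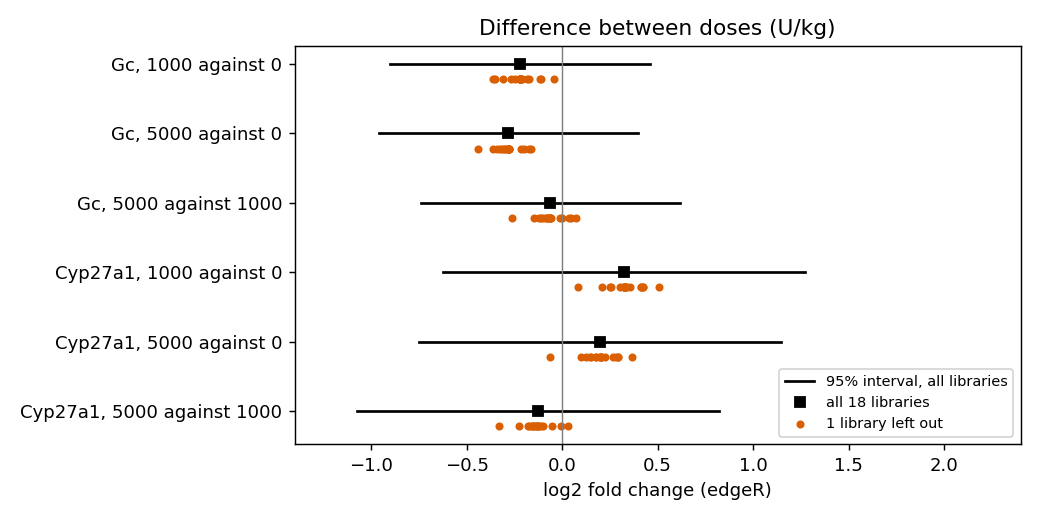
Log2 fold changes of Gc and Cyp27a1 between doses from edgeR (x axis), with all 18 libraries (squares), their 95% confidence intervals (lines) and the values with 1 library left out in turn (small points). All 6 intervals include 0, and the points of Gc at 5000 against 0 U/kg stay between −0.44 and −0.17.

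In each dose group the liver lowest in Gc was also the lowest in Cyp27a1. These 3 livers were replicate 2 of the undosed rats, replicate 5 at 1000 U/kg and replicate 2 at 5000 U/kg, and they were the lowest 3 of all 18 for either gene. Gc stood at 50.8%, 27.9% and 49.8% of the median of the other 17 libraries in them, and Cyp27a1 at 7.14%, 31.9% and 35.3%. By this measure the undosed liver was far lower in Cyp27a1 than in Gc, the liver at 5000 U/kg was lower in Cyp27a1 than in Gc by less, and the liver at 1000 U/kg was at like levels in both. The reads assigned to no annotated feature, a sign of library quality, made up 11.8% of all reads tallied in the first, the highest of the 18. They made up 7.34% in the second, the lowest, and 9.57% in the third. The third had a mean Spearman correlation of 0.892 with its group, within the range of the other libraries. The part of library quality in these levels was not tested.

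Across the 18 livers, Gc and Cyp27a1 had Pearson's r = 0.75 (permutation p = 0.00054) and Spearman's rho = 0.73 (permutation p = 0.00102). Without the 2 livers farthest from the median of Gc, r was 0.60 (permutation p = 0.0136). Without both libraries that stood apart, r was 0.59 (permutation p = 0.0184). Without all 3 low livers, a choice made after the values were seen, r was 0.36 (permutation p = 0.181) and rho 0.54 (permutation p = 0.0379, n = 15), so Pearson's relation rested on those livers. Within the doses of 0, 1000 and 5000 U/kg r was 0.79, 0.90 and 0.93 (exact permutation p = 0.103, 0.0417 and 0.0111, or 0.103, 0.0625 and 0.0333 adjusted over the 3 groups, n = 6 each), each with its low liver. This was the only pair of genes tested in this way, and both levels share the scaling of their library.

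The ratio of both transcripts within a library does not depend on that scaling. Undosed livers held 4.49 to 35.1 Cyp27a1 counts per 1000 Gc counts with a median of 23.2, those at 1000 U/kg 29.3 to 42.2 with a median of 37.1, and those at 5000 U/kg 22.7 to 39.8 with a median of 33.7. The ranges overlapped, and 4 of 6 undosed livers lay below the lowest liver at 1000 U/kg. The means were 22.8 ± 10.9, 36.0 ± 5.16 and 33.1 ± 6.03 (SD, n = 6 each). Without replicate 2 the undosed mean was 26.4 ± 6.96 (SD, n = 5). Replicate 5 at 1000 U/kg, low in each gene, had a ratio of 36.6, inside the range of its group. This ratio was formed after the levels of both genes had been seen, and its differences between doses were not tested.

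**Figure D4:**
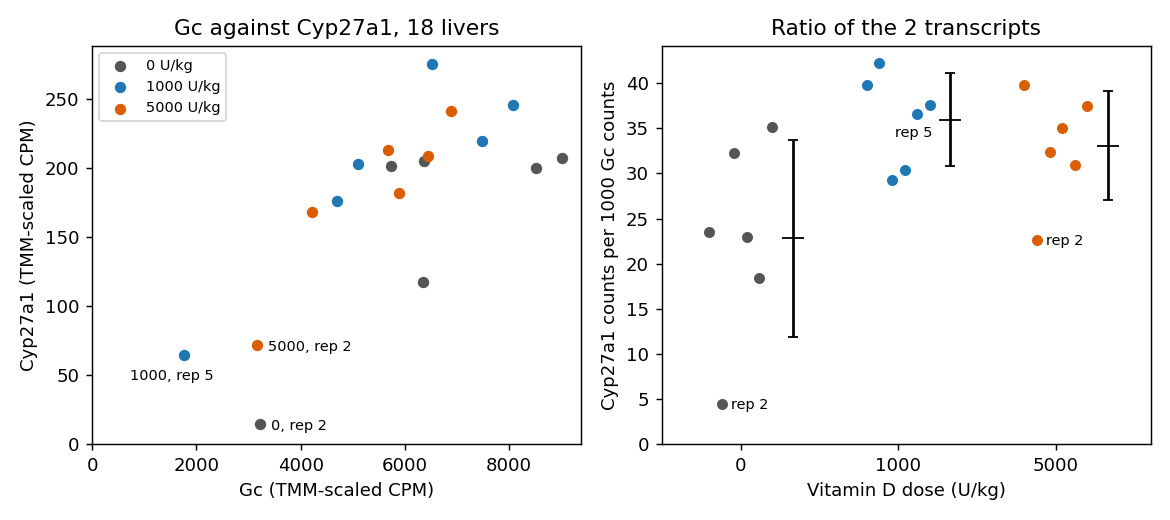
Left, TMM-scaled CPM of Cyp27a1 against Gc in 18 livers, coloured by vitamin D dose; right, Cyp27a1 counts per 1000 Gc counts in each liver by dose in U/kg, with mean and SD (n = 6). The 3 labelled livers are the lowest in both genes, and in the ratio the undosed replicate 2 is the lowest at 4.49 while replicate 5 at 1000 U/kg lies among its group.

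Likeness to each member was measured as Spearman's rho of log2 CPM across the 18 libraries, over 7711 genes of at least 5 CPM, the member included. The genes nearest to Gc were ENSRNOG00000001525 (rho = 0.97, mean of 13.8 CPM) and ENSRNOG00000039079 (rho = 0.96, mean of 11.8 CPM). Those nearest to Cyp27a1 were ENSRNOG00000053498 (rho = 0.89, mean of 57.4 CPM) and ENSRNOG00000009982 (rho = 0.89, mean of 65.9 CPM). Cyp27a1 itself was the 543rd nearest gene to Gc, and Gc the 181st nearest to Cyp27a1. A rho above 0.8 was reached by 304 genes with Gc and by 56 genes with Cyp27a1. The livers share depth and the 3 low libraries in all these values, which are descriptions of 18 points.

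Vdr, the receptor, was at or below the edge of detection at every dose. Its pooled counts were below the floor of 3 counts at 0 and 5000 U/kg, and passed it at 1000 U/kg only with replicate 5. Undosed replicates 1 and 6 and replicate 1 at 1000 U/kg held 1 count each, replicate 5 at 1000 U/kg held 3 counts, and the remaining 14 libraries, all 6 at 5000 U/kg among them, held 0. Pooled over the 6 libraries, this came to 2 counts or 0.0343 CPM in undosed rats (95% exact Poisson interval 0.00415 to 0.124) and to 4 counts or 0.0683 CPM at 1000 U/kg (0.0186 to 0.175). At 5000 U/kg it was 0 counts, for which the same kind of interval runs from 0 to 0.0761 CPM. The 3 intervals overlap, but they cover counting only and leave out the spread between rats. Their overlap is therefore no test between doses, and no fold between doses is given at these counts. Without replicate 5, which stood apart in its whole profile, the dose of 1000 U/kg held 1 count. Exact permutation tests on CPM gave p = 0.727 for 1000 against 0 and 0.455 for each of the comparisons with 5000 U/kg. The latter is the smallest p that these tests could give, since only 2 of the libraries compared held any count, so they could not pass 0.05. In the fit without a filter on low counts, edgeR gave Vdr adjusted p of 0.898, 0.864 and 0.690 (1000 against 0, 5000 against 0 and 5000 against 1000 U/kg), the last with an unadjusted p of 0.0474.

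Cyp24a1, the catabolic hydroxylase, was not detected in any liver, the 6 at 5000 U/kg included. The floor defined above was 0.0514, 0.0513 and 0.0619 CPM at 0, 1000 and 5000 U/kg, and 0.0181 CPM over all 18 libraries. For 0 counts, the upper limit of the 95% exact Poisson interval was higher, at 0.0632, 0.0630 and 0.0761 CPM in the same order. Over all 18 libraries, of 165361056 gene counts, this upper limit was 0.0223 CPM. The same libraries held 973225 counts of Gc and 29799 of Cyp27a1. No test between doses applies to a gene with 0 counts in every library, and a rise that stayed below these limits was not detectable. Whether the annotated 3' ends of this gene and of Vdr match the transcripts used in liver was not tested.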

How the data were processed

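Liver RNA of 18 rats was sequenced as 3' mRNA libraries (Total RNA Mini and QuantSeq FWD kits, per the labels' protocols). The deposited files hold raw read counts per Ensembl gene, 1 file per library. FastQC, STAR, HTSeq and DESeq2 are named in the submitters' processing notes; tool versions, genome build, gene annotation and any use of strand in counting are not given in the sources at hand. The 5 summary rows (20.9% to 26.6% of each file's total) were left out.

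Counts were tested in edgeR 4.0.16 (R 4.3.3) with the default filter by group, TMM, 3 dose groups and robust quasi-likelihood. Adjustment was by Benjamini-Hochberg over 11268 genes, with a threshold of 0.05. The same fit was run on simulated counts, with an outcome not reported here. Those counts held no libraries that stood apart, so they do not cover this feature of the data. Confidence intervals come from the fold change and its F statistic. Exact permutation tests (SciPy 1.17.1, two-sided) covered the 3 genes with counts in 3 comparisons, 9 tests. Alternatives were other scalings and filters, DESeq2 1.42.0, limma 3.58.1 (voom with quality weights), a replicate block, and libraries left out. No 2 libraries of a group agreed within sampling noise. Named genes were the 4 members and, per tested member, the 2 of highest rho. The members and lists were chosen with earlier results of these data known; the planned pathway and marker lists could not be matched to IDs, and the planned adjustment over the members' permutation tests is not given.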

Additional observations from a re-analysis of the deposited data

Results flagged for a closer look

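The Vdr level of replicate 5 at 1000 U/kg, 0.315 CPM (TMM-scaled, from 3 counts), stood apart from the other livers of its dose, of which the next held 0.106 CPM (1 count). Its gap to that liver was larger than Dixon's 95% critical value allows in a group of 6. Such a check was made in 11 groups of values, of the members and the ratio of Cyp27a1 to Gc. This was the 1 group with a liver past the limit. Chance marks about 1 in 20 groups of normally distributed values, a rate that does not hold for counts that are mostly 0. With counts this low the mark rests on 2 reads. The low Cyp27a1 values of the undosed replicate 2, of replicate 5 at 1000 U/kg and of replicate 2 at 5000 U/kg did not reach that limit.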

How the results depend on the processing

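The count of 0 called genes held under all 27 alternatives in each of the 3 comparisons, and in the test of any dose only DESeq2 differed, calling 1 gene that is no member. Neither Gc nor Cyp27a1 passed the threshold under any alternative. Some small differences changed sign. With voom weights the log2 fold change was 0.021 for Gc at 1000 against 0 and −0.043 for Cyp27a1 at 5000 against 0 U/kg. The latter was −0.037 without both libraries that stood apart and −0.062 without the undosed replicate 2, and its difference in mean CPM turned to −5.37 without both. Between 5000 and 1000 U/kg, Gc had log2 fold changes of 0.035, 0.074 and 0.048 without replicate 3 or 4 at 1000 or replicate 2 at 5000 U/kg, and a difference of 0.041 in mean log2(CPM + 0.1). Cyp27a1 ranged there from −0.33 without replicate 5 at 1000 U/kg to 0.033 without replicate 2 at 5000 U/kg. For Vdr at 1000 against 0 U/kg the difference turned to −0.024 CPM without both libraries. The relation of Gc and Cyp27a1 had r = 0.36 without the 3 low livers, and within undosed rats r = 0.79 no longer passed 0.05 with 6 livers. Adding a replicate block left 0 called genes in each of the 4 tests, and Gc and Cyp27a1 had log2 fold changes of −0.22 and 0.52 at 1000 and −0.26 and 0.29 at 5000 against 0 U/kg. The number was not taken to pair the rats, and each library is labelled as a separate replicate. Same-numbered libraries deviated together (r over 0.1) in 10 of 18 pairs and had r below 0 in 6. The values of r ran from −0.414 to 0.644, and 7 of 18 libraries correlated best with their own number. These counts were not set against those of chance, so whether the number marks a shared batch was not tested. The causes of these shifts were not tested. Genes with an unadjusted p under 0.05 ranged from 224 to 1923, 259 to 1010, 191 to 2271 and 348 to 1597 for 1000 against 0, 5000 against 0, 5000 against 1000 U/kg and any dose. The fits differed in the number of genes tested, from 10556 to 19788. The largest number belongs to the fit without a filter on low counts, which gave the 1923 and the 1597. Depth limits the lowest level detectable for Vdr and Cyp24a1, provided that their 3' ends are rightly annotated, which was not tested. The spread between rats limits the smallest difference detectable for Gc and Cyp27a1. Why Vdr and Cyp24a1 had so few counts was not tested. Permutation alternatives were not run for Cyp24a1, which had 0 counts throughout.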
